A study of Homo sapiens with 2 samples.

Results

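The EGF family ligand genes AREG, EREG, EPGN, BTC, TGFA, HBEGF, EGF and NRG1 were taken by name, 8 of the 20037 protein-coding genes annotated on the main chromosomes. Their surroundings were read from maps of lysine lactylation in CAL27 cells, a cell line of human oral squamous cell carcinoma. The maps were made by CUT&Tag, in which an antibody, here a pan-lactyllysine antibody that reads the modification on any protein, guides a transposase to cut and tag the DNA nearby. One library came from CAL27 cells given 10 mM lactate for 24 hours, and the other from CAL27 cells with no treatment. They are called the lactate-labelled library and the untreated-labelled library. With 1 library in each group, differences between them could not be checked against replicates, and no test was made. The genes were chosen by family membership and selected on earlier results of these data, in which EREG and AREG had a gene-end region in the lactate-labelled library but none in the untreated-labelled one, so those calls are given as a description.

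The ligands of this family are made as membrane-anchored precursors, and metalloproteases cut them to release a short EGF-like domain that binds receptors of the ERBB family. AREG (amphiregulin), EPGN (epigen), TGFA (transforming growth factor alpha) and EGF bind EGFR, while EREG (epiregulin), BTC (betacellulin) and HBEGF (heparin-binding EGF-like growth factor) bind both EGFR and ERBB4, and NRG1 (neuregulin 1) binds ERBB3 and ERBB4. In squamous epithelium several of them act on the cells that make them and drive growth and migration. EPGN, EREG, AREG and BTC lie side by side on chromosome 4, EGF lies 35.1 Mb farther along the same chromosome, and TGFA, HBEGF and NRG1 lie on chromosomes 2, 5 and 8.

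The libraries were of like depth, with 15120031 tags in the lactate-labelled library and 15696147 in the untreated-labelled library. The peak lists held 50352 regions in the lactate-labelled library and 43680 in the untreated-labelled library. The names inside the files conflict with the sample labels: run, input and peaks are named in each list for the other sample, and the header's name line alone follows the label. The samples were kept as labelled, and every direction below would turn if the lists had been exchanged. Of 9 squamous epithelial marker genes, 5 in the lactate-labelled library and 4 in the untreated-labelled library had a region within 1 kb of a gene end. KRT14, TP63, CDH1 and DSG3 had none there in either library, though each of the 9 genes had a region in the gene or within 50 kb. Of 21 marker genes of other cell types, 8 in each library had a region at a gene end. Of all protein-coding genes, 39.8% had such a region in both libraries. A further 9.7% had one in the lactate-labelled library alone and 3.74% in the untreated-labelled library alone. The median protein-coding gene had 4 regions in the gene or within 50 kb in each library. No cell type is read from the marker counts. A lactylation region at a gene is no measure of its RNA.

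The promoter windows of the chromosome 4 cluster are shown first because the calls differ among its neighbouring genes: the EREG and AREG windows were touched by a region in the lactate-labelled library alone, the BTC window in both libraries and the EPGN window in neither. Each window runs from 250 bases before to 50 bases after the annotated start, 5′ to 3′ on the gene's own strand, as given by RefSeq on GRCh38.p14. Capitals mark matches, on either strand, to the cyclic AMP response element TGACGTCA, to the letters TATAAA of a TATA box, to GGGCGG of the SP1/KLF factors, to CATTCC of the TEAD factors and to ACGTG of the HIF factors. None of the windows shown held TGANTCA of AP-1 or GGGNNTTCC of NF-kappaB, and no match in them overlapped another. Positions count the start as 0.
EREG, chr4:74364895-74365194, + strand: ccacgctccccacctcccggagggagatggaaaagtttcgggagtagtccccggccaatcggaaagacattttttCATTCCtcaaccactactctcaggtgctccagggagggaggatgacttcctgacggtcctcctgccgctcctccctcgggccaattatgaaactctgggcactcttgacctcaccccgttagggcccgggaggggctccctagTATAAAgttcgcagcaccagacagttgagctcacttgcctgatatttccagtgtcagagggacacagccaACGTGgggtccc
AREG, chr4:74444886-74445185, + strand: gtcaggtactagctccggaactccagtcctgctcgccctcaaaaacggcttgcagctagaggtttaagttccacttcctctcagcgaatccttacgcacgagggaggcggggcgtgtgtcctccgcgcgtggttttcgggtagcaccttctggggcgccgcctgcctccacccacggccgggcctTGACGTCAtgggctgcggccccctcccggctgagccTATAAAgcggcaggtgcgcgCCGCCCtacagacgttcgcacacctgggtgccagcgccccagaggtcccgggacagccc
BTC, chr4:74794474-74794773, - strand: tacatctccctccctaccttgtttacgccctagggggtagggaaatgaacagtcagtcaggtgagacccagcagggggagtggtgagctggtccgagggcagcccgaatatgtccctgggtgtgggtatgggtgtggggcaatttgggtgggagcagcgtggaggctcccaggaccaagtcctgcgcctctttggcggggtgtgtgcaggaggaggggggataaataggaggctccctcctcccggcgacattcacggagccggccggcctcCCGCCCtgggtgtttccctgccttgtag
EPGN, chr4:74308220-74308519, + strand: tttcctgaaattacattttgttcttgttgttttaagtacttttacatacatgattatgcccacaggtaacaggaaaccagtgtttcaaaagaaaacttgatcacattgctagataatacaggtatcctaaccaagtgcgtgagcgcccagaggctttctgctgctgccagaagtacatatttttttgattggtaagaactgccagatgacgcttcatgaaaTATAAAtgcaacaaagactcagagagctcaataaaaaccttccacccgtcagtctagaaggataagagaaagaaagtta

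The region at EREG covered all 300 bases of its window, and the region at AREG covered the last 113 bases. At BTC the region of the lactate-labelled library covered 300 bases and that of the untreated-labelled library 200. AREG held TGACGTCA from -65 to -58, a stretch found in 2.26% of the 22183 promoter windows of protein-coding genes, and its lactylation region began at -63. TATAAA lay at -29 to -24 in AREG, at -32 to -27 in EREG and at -29 to -24 in EPGN, and 9.47% of all windows hold those letters. EREG also held CATTCC from -175 to -170 (12.2% of windows) and ACGTG from 38 to 42 (23.1% of windows). The GC content was 57.7% in EREG, 66.3% in AREG, 63% in BTC and 37.7% in EPGN, against a median of 62.3% over all windows. A match of letters shows neither binding nor a cause, and a missing match says nothing about the factor.

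Over the chromosome 4 cluster, the lactate-labelled library had 10 regions and the untreated-labelled library 6, in a window from 74258470 to 74844523 (build hg38, as all coordinates here) that spans the genes and 50 kb to both sides. Of these, 5 in the lactate-labelled library (50%, exact 95% Clopper-Pearson interval 18.7 to 81.3) and 1 in the untreated-labelled library (16.7%, interval 0.421 to 64.1) overlapped no region of the other library. Over the whole lists the shares were 38.8% and 28.8%, inside both intervals. The 5 include the EREG and AREG start regions, which were part of what chose the genes. The share and the excess of the cluster are therefore a description. All intervals given here cover counting error only, and tags are not independent molecules. Stretches of the same length laid end to end along the chromosomes had a median of 10 regions in the lactate-labelled library and 8 in the untreated-labelled library, and 22% of the 4437 stretches with a region had an excess of 4 or more, as the cluster did. The cluster was thus at the median of these stretches in the lactate-labelled library (10 regions) and below it in the untreated-labelled library (6 against 8). Its excess was a common one.

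**Figure D1:**
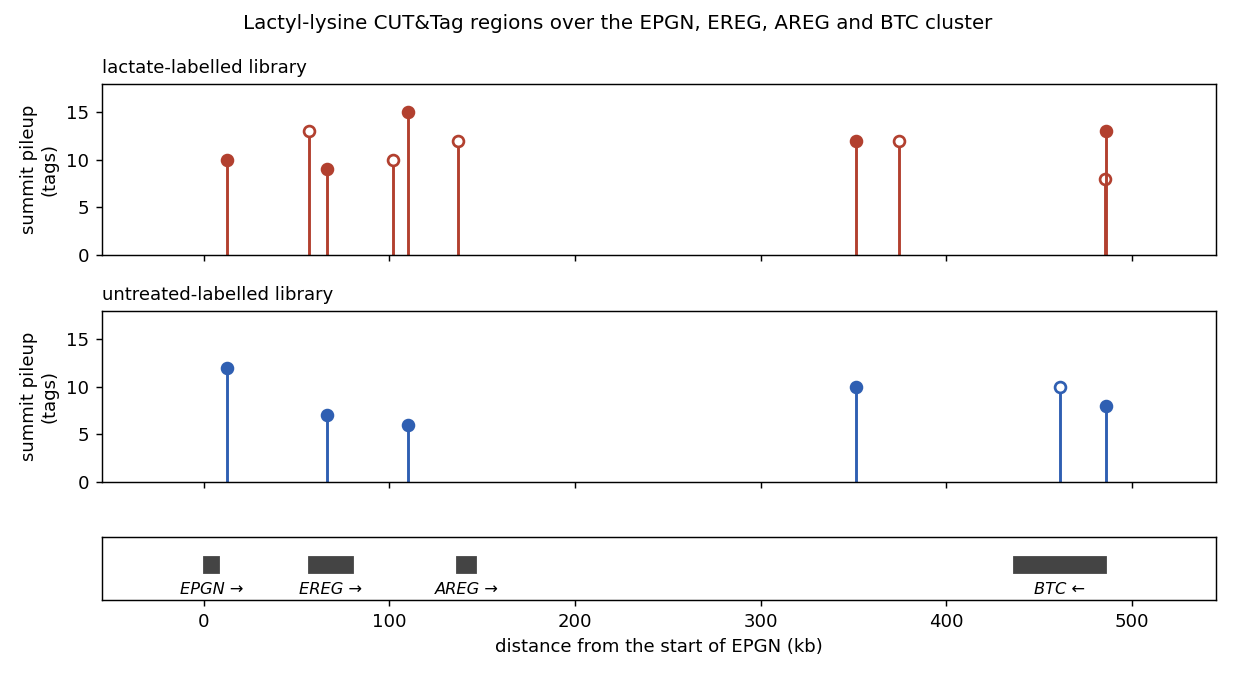
Regions of the lactate-labelled library (top) and the untreated-labelled library (middle) over the chromosome 4 cluster, by distance from the start of EPGN in kb, with the genes and their direction at the bottom. Height is the summit pileup in tags, and open circles mark regions with no overlap in the other library. Open circles stand at the starts of EREG (13 tags) and AREG (12 tags) in the top panel, with nothing below them in the middle panel.

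EREG carried the widest region of the cluster, at its start, in the lactate-labelled library alone. It ran from 74364675 to 74365428, or from -470 to 283 around the start, with 2 summits, the higher 20 bases past the start. The pileup there, the number of tags over the summit, was 13 in the lactate-labelled library (exact 95% Poisson interval 6.92 to 22.2), and its fold enrichment over the local background was 5.51, at the 64.7th percentile of that list. The untreated-labelled library had no region there. Fold enrichments are the authors' own and rank regions within 1 list. The same stretch also overlaps LOC105377276, an annotated long noncoding RNA gene.

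AREG likewise carried a region at its start in the lactate-labelled library alone, from 74445073 to 74445311, or from -63 to 175. Its pileup was 12 in the lactate-labelled library (interval 6.20 to 21.0) and its fold enrichment 5.16, at the 57.7th percentile. No other region lay inside AREG in either library. The peak lists hold no value below their limit, so the level in the untreated-labelled library at the EREG and AREG starts is not known. In the list of the untreated-labelled library, regions of like local background (within 10%, scaled for depth) were listed from 7 tags upward. The lower bounds, 6.92 tags at EREG and 6.20 at AREG, fall under that, but the bounds were not scaled for depth. The lactate-labelled library had fewer tags, and 6.92 is so close to 7 that the EREG comparison depends on that scaling. It is therefore undecided at EREG. At AREG a difference between the libraries was not detectable beyond counting error at this depth.

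A region at a gene end in the lactate-labelled library alone is a frequent call: 9.7% of the 20037 protein-coding genes had it, and 3.74% had one in the untreated-labelled library alone. Of the 8 ligand genes, EREG and AREG had the first and 0 genes the second, BTC, TGFA and HBEGF had regions at an end in both libraries (39.8% of all genes), and EPGN, EGF and NRG1 in neither (46.8%). With equal lists of the 21840 strongest regions of each library, EREG and AREG kept their calls, BTC lost its region in the untreated-labelled library, and HBEGF lost its regions in both. Under equal lists 7.29% of all genes had such a region in the lactate-labelled library alone and 5.78% in the untreated-labelled library alone. Equal lists only drop regions, so the untreated-labelled library could not gain one at EREG or AREG. By promoter window, in the full lists, the 7 ligand genes with a sequence gave the same split as by gene end. Of all genes with such a sequence, 9.19% were touched in the lactate-labelled library alone and 3.33% in the untreated-labelled library alone. The EREG and AREG calls were part of what chose the genes, and nothing is read from their share.

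Between EREG and AREG lay the pair of regions with the largest ratio among the ligand genes, with the samples as labelled. It ran from 74418264 to 74418539 with 15 tags and a fold enrichment of 8.10 in the lactate-labelled library, against 74418239 to 74418438 with 6 tags and 3.48 in the untreated-labelled library, an overlap of 175 bp. The site is 26.6 kb before AREG and 29.5 kb past EREG. Per 1000000 tags the pileup was 0.992 in the lactate-labelled library and 0.382 in the untreated-labelled library, a ratio of 2.60 with an exact conditional interval of 0.952 to 8.16. That ratio stood at the 99.7th percentile of 30074 paired regions of the genome, and its interval still holds 1. With the lists exchanged the ratio would be 0.385, at the 0.392th percentile. The 6 tags of the untreated-labelled library are the lowest pileup in that list, so the site only just entered it.

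A further region of the lactate-labelled library alone lay just short of that pair, from 74410164 to 74410734, with 10 tags and a fold enrichment of 5.09. Inside EREG, 9.61 kb past the start by its summit in the lactate-labelled library, a weak pair was shared. It ran from 74374636 to 74374956 with 9 tags and a fold enrichment of 4 in the lactate-labelled library, against 74374771 to 74374970 with 7 tags and 3.42 in the untreated-labelled library, an overlap of 186 bp. The EREG neighbourhood thus held 5 regions in the lactate-labelled library and 3 in the untreated-labelled library, and AREG 3 and 1, several of them counted for both genes.

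EPGN had no region inside the gene or at its start in either library. A shared pair stood 3.88 kb past the gene, in LOC105377276: 74320666 to 74320880 with 10 tags and a fold enrichment of 5.57 in the lactate-labelled library, against 74320582 to 74320891 with 12 tags and 6.46 in the untreated-labelled library, an overlap of 215 bp. This was the 1 paired site of the cluster where the lactate-labelled library had the lower pileup per tag, at a ratio of 0.865 (interval 0.335 to 2.18). The EREG start region, 47.9 kb past EPGN, is the farthest region inside the 50 kb limit of EPGN, and the next one out is the weak EREG pair at 57.8 kb in the lactate-labelled library and 58.0 kb in the untreated-labelled library.

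BTC stands apart from the other cluster genes, 289.8 kb beyond AREG and read in the opposite direction. At its start the lactate-labelled library had a region from 74794370 to 74794782 with 13 tags and a fold enrichment of 6.86, against 74794541 to 74794740 with 8 tags and 4.47 in the untreated-labelled library, an overlap of 200 bp. The ratio per tag was 1.69 with an interval of 0.648 to 4.70. A smaller region of the lactate-labelled library, from 74793906 to 74794223 with 8 tags and 4.33, followed inside the gene with no overlap in the other list. The untreated-labelled library in turn had a region of its own 25.1 kb into the gene, from 74769349 to 74769548, with 10 tags and a fold enrichment of 5.47. BTC therefore had 2 regions in each library, 1 of them alone in each.

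In the long stretch between AREG and BTC, over 50 kb from both, lay 2 more sites. The first was shared, from 74659660 to 74660063 with 12 tags and a fold enrichment of 6.58 in the lactate-labelled library, against 74659734 to 74659962 with 10 tags and 5.47 in the untreated-labelled library. The second, from 74682799 to 74683111 with 12 tags and 6.58, was in the lactate-labelled library alone. Over the 5 pairs of the cluster window the summed pileup was 59 tags in the lactate-labelled library and 43 in the untreated-labelled library, a ratio per tag of 1.42 with an interval of 0.945 to 2.16. The median ratio over all 30074 pairs was 1.18, inside that interval.

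TGFA and HBEGF, outside the cluster, looked different: both had many regions, mostly shared, with higher pileups. Most regions of the whole lists were shared too, with 38.8% alone in the lactate-labelled library and 28.8% in the untreated-labelled library. Per 100 kb of gene and flanks, HBEGF had 7.03 regions and TGFA 5.33 in each library. EREG had 4.05 in the lactate-labelled library and 2.43 in the untreated-labelled library, AREG 2.73 and 0.910 in the same order, EPGN 1.85 and 0.923, and BTC 1.34 in each. NRG1 had 1.05 in the lactate-labelled library and 0.648 in the untreated-labelled library, and EGF 0.996 and 0. The median protein-coding gene had 2.88 in the lactate-labelled library and 2.45 in the untreated-labelled library. With 0 to 13 regions a gene and 1 library a group, the order of neighbours in this list is a description.

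**Figure D2:**
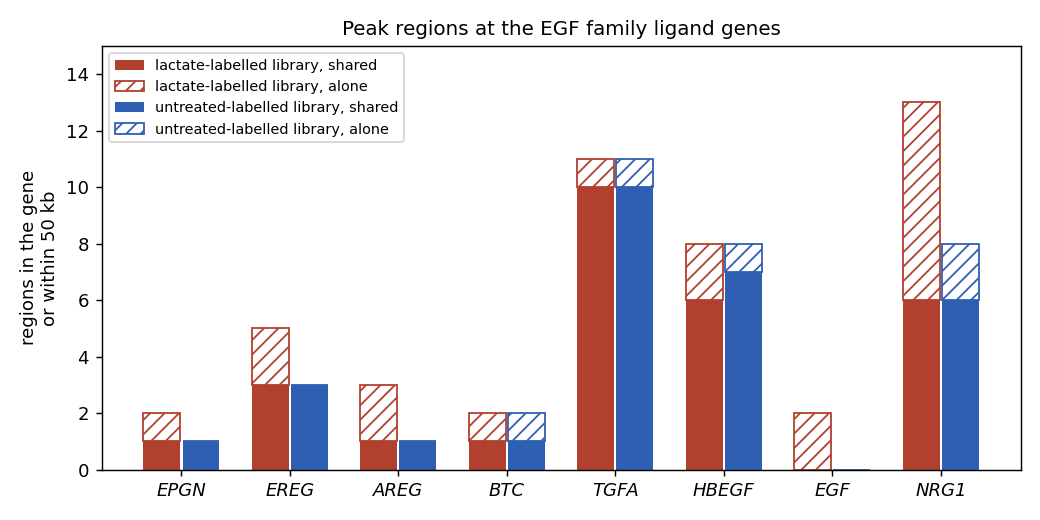
Number of peak regions in each ligand gene or within 50 kb of it, in the lactate-labelled library (red, left bar) and the untreated-labelled library (blue, right bar). Filled parts are regions that overlap one of the other library, and hatched parts are regions alone in 1 library. TGFA (11 in each) and HBEGF (8 in each) are mostly filled, and EGF has 2 hatched regions against 0.

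The start of TGFA, which has a pair of annotated starts 380 bases apart, was marked in both libraries. The lactate-labelled library listed it as separate regions, 70553797 to 70554440 with 24 tags and a fold enrichment of 6.22 and 70553315 to 70553559 with 18 tags and 4.77. The untreated-labelled library listed 1 region over both, 70553379 to 70554381, with 22 tags and 6.02. Set against that region, the first gave a ratio per tag of 1.13 (interval 0.608 to 2.12), so a count of regions here depends on where the peak caller split them. LOC124907824, a long noncoding RNA gene, overlaps the TGFA start.

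Within TGFA the highest pileup of all ligand genes lay 29.4 kb past the start in each library. It was 36 tags in the lactate-labelled library, in a region from 70524022 to 70525339 (fold enrichment 5.44), and 37 tags in the untreated-labelled library, in a region from 70524210 to 70524725 (6.76). The broad region of the lactate-labelled library also covered a second one of the untreated-labelled library, 70524919 to 70525237, with 19 tags and 3.53. The ratio per tag of the main pair was 1.01 (interval 0.620 to 1.64), the narrowest interval among the TGFA pairs.

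The other regions inside TGFA were nearly all shared. One pair lay 12.1 kb past the start, from 70541560 to 70542027 with 15 tags and 6.96 in the lactate-labelled library, against 70541492 to 70542017 with 10 tags and 4.95 in the untreated-labelled library. Another, 37.0 kb in, ran from 70516737 to 70516997 with 15 tags and 4.30 in the lactate-labelled library and from 70516737 to 70517094 with 13 tags and 3.55 in the untreated-labelled library. One more, 44.1 kb in, ran from 70509595 to 70509865 with 15 tags and 4.55 in the lactate-labelled library and from 70509706 to 70509916 with 16 tags and 5.41 in the untreated-labelled library. The exception was a region of the lactate-labelled library alone just beyond it, 70508818 to 70509438 with 14 tags and a fold enrichment of 4.19, and the list of the untreated-labelled library began at 9 tags for a like background there.

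Around TGFA, 12.2 kb past the end of the gene, lay the highest fold enrichment of all ligand regions. It was 9.62 with 24 tags in the lactate-labelled library, from 70434380 to 70435039, against 5.91 with 14 tags in the untreated-labelled library, from 70434224 to 70435011. The ratio per tag was 1.78 with an interval of 0.884 to 3.72. Upstream, 15.8 kb and 16.3 kb before the gene, 2 neighbouring pairs followed each other inside LOC124907824. They had 16 tags (70569676 to 70569942, fold enrichment 5.59) and 19 tags (70570089 to 70570441, 6.58) in the lactate-labelled library, and 15 tags each (70569677 to 70569876, 4.88, and 70570115 to 70570314, 4.94) in the untreated-labelled library. Farther out, 42.5 kb before the gene, the lactate-labelled library had 21 tags from 70596322 to 70597141 with 6.79, against 16 tags from 70596245 to 70596555 with 5.70 in the untreated-labelled library. The untreated-labelled library alone had a region at 40.9 kb, from 70594679 to 70594878 with 11 tags and 3.97. In both libraries the first region beyond 50 kb lay 58.7 kb from the gene.

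HBEGF carried its start region and its flanking ones in both libraries, on a raised local background. At the start the lactate-labelled library had 28 tags from 140346483 to 140346899, against 26 tags from 140346476 to 140346926 in the untreated-labelled library. The fold enrichments were 3.35 in the lactate-labelled library and 3.75 in the untreated-labelled library, low in their lists (percentiles of 9.21 in the lactate-labelled library and 21.6 in the untreated-labelled one). The local background recomputed from these values was 7.66 tags in the lactate-labelled library and 6.20 in the untreated-labelled library, against medians of 2.20 and 2.12 over the whole lists in the same order. Peaks were called with no control, so this background comes from each library's own tags over a range of 10000 bp. That range takes in neighbouring regions, and how far they raise the background was not tested. High pileups at HBEGF therefore went with low fold enrichments, and under a threshold on fold enrichment of 5 no gene-end region was left in either library.

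Close to the HBEGF start stood 2 more pairs with pileups among the highest of the ligand genes. Upstream, 1.49 kb before the gene, the lactate-labelled library had 34 tags from 140348097 to 140348527 with a fold enrichment of 4.10, against 25 tags from 140348085 to 140348463 with 3.69 in the untreated-labelled library. Inside the gene, 1.69 kb past the start, 1 region of the lactate-labelled library from 140344807 to 140345398 with 34 tags and 3.86 stood over 2 of the untreated-labelled library. Those were 140344790 to 140345006 with 34 tags and 4.64 and 140345158 to 140345357 with 21 tags and 2.92. The ratios per tag of the 3 pairs around the start were 1.41, 1.12 and 1.04 from upstream to inside, and every interval held 1.

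At a distance from HBEGF the regions were sparser and came closer to other genes. Upstream, 11.1 kb before the gene and nearest to SLC4A9, an anion exchanger family gene, a pair had 19 tags from 140357671 to 140357881 with 4.35 in the lactate-labelled library, against 17 tags from 140357697 to 140357896 with 4.33 in the untreated-labelled library. Past the gene, at 9.65 kb, the lactate-labelled library had the lower pileup, with 15 tags from 140322888 to 140323196 and 3.45, against 23 tags from 140322847 to 140323210 and 4.98 in the untreated-labelled library. That ratio, 0.677 (interval 0.329 to 1.35), was the lowest of the ligand pairs and stood at the 3.46th percentile of all pairs, and with the lists exchanged it would be 1.48, at the 96.6th. In PFDN1, a prefoldin subunit gene, 29.5 kb past HBEGF, the lactate-labelled library had 18 tags from 140303020 to 140303365 with 6.51, against 11 tags from 140303024 to 140303508 with 4.58 in the untreated-labelled library.

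Regions at HBEGF in 1 library alone were all away from the gene. The lactate-labelled library had 17 tags from 140321818 to 140322253 (fold enrichment 3.90), and 13 tags from 140312115 to 140312457 with 5. The untreated-labelled library had 11 tags from 140295551 to 140295787 with 5.17, again in PFDN1. In none of them did the lower counting bound of the pileup pass the lowest value that the other list holds at a like background. Just beyond 50 kb both libraries had a strong region, 54.1 kb from HBEGF with 53 tags in the lactate-labelled library and 54.0 kb with 46 tags in the untreated-labelled library, which is not counted here.

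**Figure D3:**
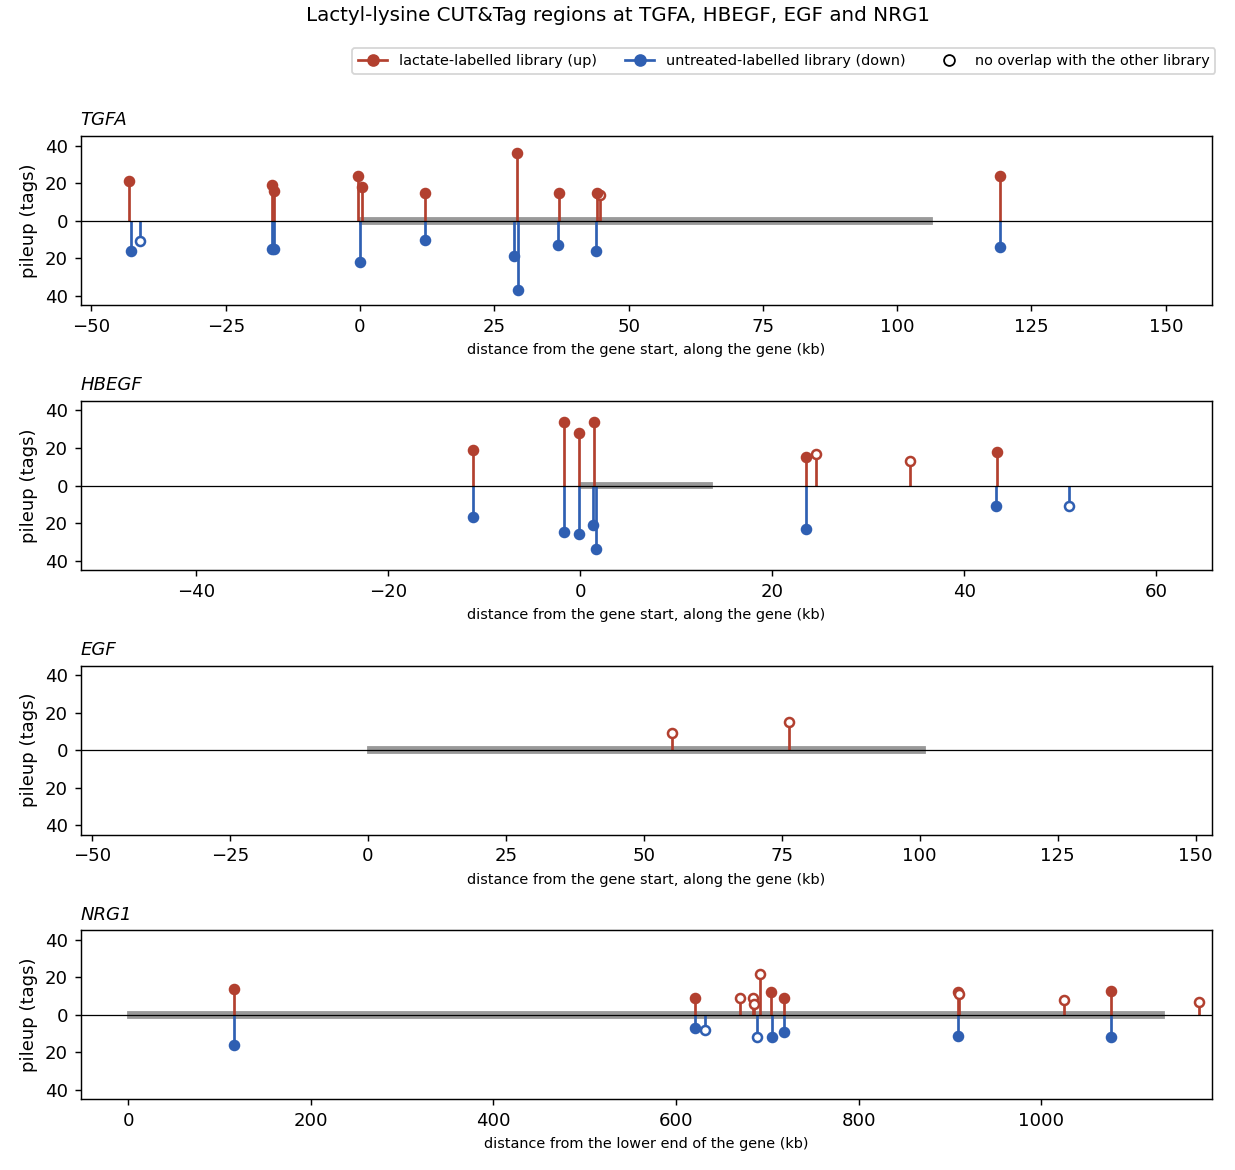
Regions at TGFA, HBEGF, EGF and NRG1, by distance in kb from the gene start (for NRG1, from the lower end of the gene), with pileup in tags drawn upward for the lactate-labelled library and downward for the untreated-labelled library. Grey bars are the genes and open circles mark regions with no overlap in the other library. Most sites at TGFA and HBEGF have a filled circle on both sides, EGF has 2 open circles on the upper side and NRG1 has both kinds away from its ends.

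EGF, the founding ligand of the family, had no region in the untreated-labelled library in the gene or within 50 kb, and 2 in the lactate-labelled library, both deep inside the gene. The stronger ran from 109989104 to 109989378, 76.4 kb past the start, with 15 tags (interval 8.40 to 24.7) and a fold enrichment of 7.14, at the 87.1th percentile of the list. The other ran from 109967876 to 109968075, 55.1 kb past the start, with 9 tags and 5.06. The list of the untreated-labelled library began at 6 tags for a like background, below the lower bound of the stronger region and above the 4.12 of the weaker one. Of all protein-coding genes 3.1% had regions in the lactate-labelled library and 0 in the untreated-labelled library over the gene and 50 kb, and 1.94% the reverse. The nearest regions outside were 182.7 kb away in the lactate-labelled library and 108.4 kb in the untreated-labelled library.

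NRG1 is by far the longest of the genes, at 1134.8 kb, and all but 1 of its regions lay inside it, away from its ends. Only its outer ends were scored, and it had no promoter window. Whether a region lay at a transcript start inside the gene was not tested. The lactate-labelled library had 13 regions, 7 of them alone, and the untreated-labelled library 8, with 2 alone. Over the whole lists 38.8% of regions in the lactate-labelled library and 28.8% in the untreated-labelled library were alone. With so few regions, the NRG1 counts are a description. The 6 pairs had ratios per tag of 0.908 to 1.33, each interval holding 1. From the lower end of the gene they stood at 115.9 kb, 621.1 kb, 704.8 kb, 718.9 kb, 908.9 kb and 1076 kb by the summit in the lactate-labelled library.

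The strongest shared NRG1 pair was the first, from 31755038 to 31755531 with 14 tags and a fold enrichment of 7.59 in the lactate-labelled library, against 31755015 to 31755537 with 16 tags and 7.94 in the untreated-labelled library. The last pair followed it, with 13 tags and 7.09 (32715123 to 32715788) in the lactate-labelled library and 12 tags and 6.46 (32715160 to 32715450) in the untreated-labelled library. These were also the pairs with the highest fold enrichments in NRG1. The third had 12 tags in each library, with 5.86 (32343585 to 32344131) in the lactate-labelled library and 6.37 (32343878 to 32344126) in the untreated-labelled library. The fourth had 9 tags in each, with 5.06 (32357981 to 32358180) in the lactate-labelled library and 4.97 (32357921 to 32358131) in the untreated-labelled library. The weaker ones were the fifth, with 12 tags and 4.55 (32547938 to 32548240) in the lactate-labelled library and 11 tags and 4.76 (32548024 to 32548223) in the untreated-labelled library, and the second, with 9 tags and 4.90 (32260290 to 32260489) and 7 tags and 3.97 (32260009 to 32260322) in the same order. The second pair overlapped by no more than 33 bp.

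The highest pileup within NRG1 was in the lactate-labelled library alone, from 32331536 to 32331931, with 22 tags (interval 13.8 to 33.3) and a fold enrichment of 7.99, at the 92.4th percentile. In the untreated-labelled library the list began at 8 tags for a like background, below that interval. The nearest region of the untreated-labelled library, 32328095 to 32328300 with 12 tags and a fold enrichment of 5, lay a few kb away and was itself alone. The other 6 regions of the lactate-labelled library alone were weaker, with 6 to 11 tags and fold enrichments of 3.10 to 4.56. They ran from 32309825 to 32310024 (9 tags, 4.03), 32323510 to 32323880 (9 tags, 4.46), 32324272 to 32324471 (6 tags, 3.10), 32548782 to 32549152 (11 tags, 4.11), 32664149 to 32664519 (8 tags, 4.56) and, past the gene, 32812369 to 32812634 (7 tags, 4.05). The second region of the untreated-labelled library alone ran from 32271451 to 32271651 with 8 tags and 4.21.

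Across all 8 genes, 42 distinct regions of the lactate-labelled library and 32 of the untreated-labelled library lay in a gene or within 50 kb. Of these, 16 in the lactate-labelled library (38.1%) and 5 in the untreated-labelled library (15.6%) were alone, with exact Clopper-Pearson intervals of 23.6 to 54.4 and 5.28 to 32.8 in the same order. The shares over the whole lists, 38.8% in the lactate-labelled library and 28.8% in the untreated-labelled library, lie inside these intervals. The 16 include the EREG and AREG start regions, which were part of what chose the genes. The lower counting bound of the pileup passed the lowest value in the other list at a like background in 2 of the 16, the stronger EGF region and the NRG1 region with 22 tags, and in 0 of the 5. Over the whole lists it did so in 20.4% of the regions found in the lactate-labelled library alone, and in 14% of the ones alone in the untreated-labelled library. Bounds were not scaled for depth in these counts. At the EREG start region the bound of 6.92 tags stood against 7, so its absence from the 2 depends on that. By number of regions, 5 of the genes had more in the lactate-labelled library, 3 had as many and 0 had fewer, where 50.1% of all protein-coding genes had more, 29.5% as many and 20.5% fewer. The 5 include EREG and AREG, whose start regions were part of what chose the genes. They also include EPGN, whose further region in the lactate-labelled library is the EREG start region. Regions between EREG and AREG count for both, so the genes are not separate counts and the tally is a description. The lists differ in length, and with equal lists 4 of the genes had more in the lactate-labelled library, 1 had as many and 3, TGFA, HBEGF and NRG1, had fewer (29.7%, 43.4% and 26.9% of all genes). HBEGF also had fewer with 10 kb flanks and in the gene body alone. Inside HBEGF, 1 region of the lactate-labelled library stood over 2 of the untreated-labelled library, so these counts depend on where the peak caller split them. Other settings went the opposite way. With 100 kb flanks all 8 genes had more in the lactate-labelled library, and so did all 8 when regions needed a −log10 p of 7 or higher. With fold enrichments held to 5 or higher, and with every summit, 7 had more, 1 as many and 0 fewer. No share of all protein-coding genes is given for these settings, so these tallies too are a description.

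The 25 paired regions of the ligand genes had a median ratio per tag of 1.13, from 0.677 to 2.60, against a median of 1.18 over all pairs. In 21 of the 25 the ratio was above 1, and 71.4% of all pairs had a ratio above 1. In 0 of the 25 did the interval leave out 1. Over the whole genome 5.04% of pairs had an interval above 1 and 0.176% one below it. For TGFA, HBEGF and NRG1 together, the summed pileup of 21 pairs was 402 tags in the lactate-labelled library and 361 in the untreated-labelled library, a ratio per tag of 1.16 with an interval of 1.00 to 1.34.

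**Figure D4:**
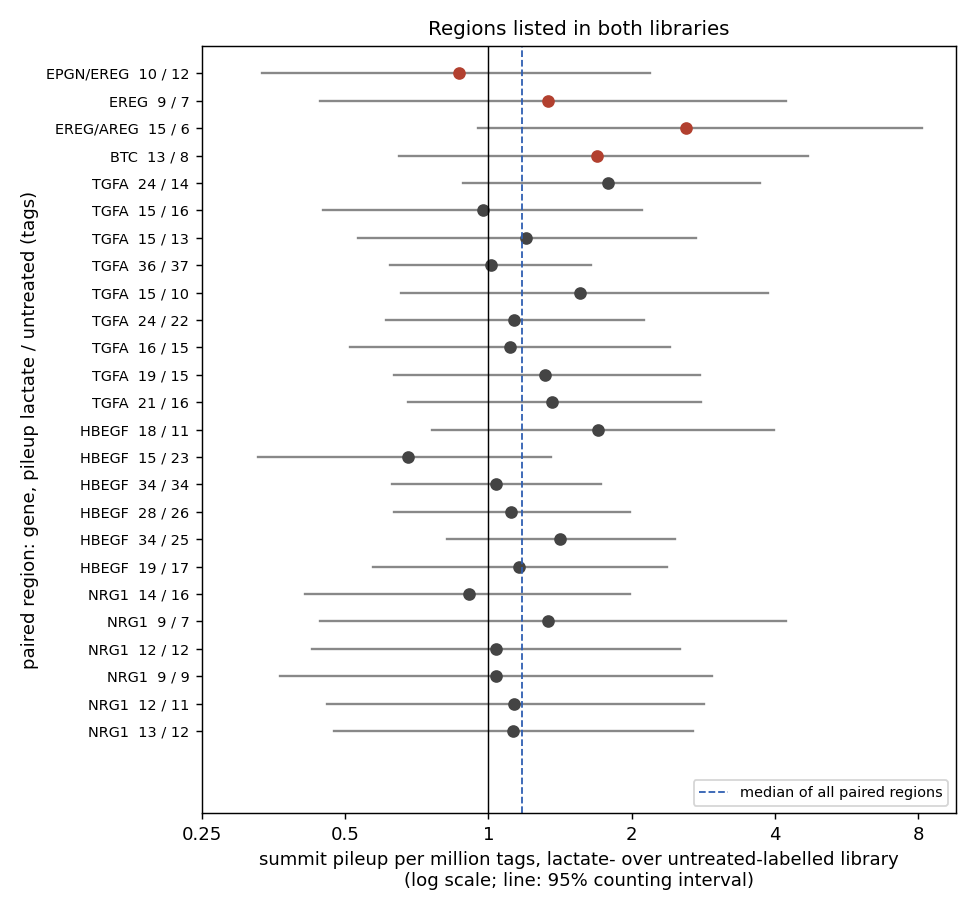
Ratio of summit pileup per tag, the lactate-labelled library over the untreated-labelled library, on a log scale, for the 25 regions listed in both libraries, with 95% counting intervals as lines and the pileups of both libraries beside the gene names. Red points belong to the chromosome 4 cluster, and the dashed line is the median of all paired regions, 1.18. Every line crosses 1, and the point farthest right, 2.60, is the site between EREG and AREG.

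Among 60 other genes of the pathway, 7 had a gene-end region in the lactate-labelled library alone, 3 in the untreated-labelled library alone, 43 in both and 7 in neither. In percent these were 11.7, 5, 71.7 and 11.7, against 9.7, 3.74, 39.8 and 46.8 of all protein-coding genes. The share marked in both was thus above that of all genes, and the shares alone were near it. The receptor genes had such regions in 4 of 4 in the lactate-labelled library and 2 of 4 in the untreated-labelled library. ERBB2 (fold enrichments of 5.52 in the lactate-labelled library and 5.29 in the untreated-labelled library) and ERBB3 (6.70 and 4.84 in the same order) were marked in both. EGFR (3.65) and ERBB4 (3.98) were marked at an end in the lactate-labelled library alone. Over the promoter window, both libraries had a region at EGFR and neither had one at ERBB4. EGFR held 28 regions in the lactate-labelled library and 23 in the untreated-labelled library over the gene and 50 kb.

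Of the other neuregulin genes, NRG2 was marked in both libraries, with fold enrichments of 4.85 in the lactate-labelled library and 4.47 in the untreated-labelled library, and NRG3 and NRG4 in neither. A mark can lie at either end of a gene, and the NRG2 promoter window was touched in the untreated-labelled library alone. Among genes of ligand release, ADAM10, a shedding protease gene, was marked in both (7.34 in the lactate-labelled library and 6.13 in the untreated-labelled library), ADAM12 in the lactate-labelled library alone (3.85), and ADAM9 (6.20) and RHBDF2 (3.21), an inactive rhomboid gene that acts on ADAM17, in the untreated-labelled library alone. Downstream, PLCG1 (2.85), HRAS (3.60), NRAS (5.36) and CCND1 (3.42) were marked in the lactate-labelled library alone and GAB1 (3.10) in the untreated-labelled library alone. The PLCG1 and NRAS promoter windows were touched in the lactate-labelled library alone and the HRAS window in neither, and CCND1 and GAB1 had no window sequence. STAT3, MTOR, CBLB and MYC were marked in both. All 10 negative regulators of the pathway were marked at an end in both libraries, as were 33 of the other 50 pathway genes (66%), against 39.8% of all genes.

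By the pair of region counts over the gene and 50 kb, in 2 libraries, the pathway genes closest to AREG (3 in the lactate-labelled library and 1 in the untreated-labelled library) were BRAF and PLCG1 with the same counts, then CCND1 with 3 and 2 in that order, among 2 genes tied at that distance. Closest to EREG (5 and 3 in that order) were AKT1 (4 and 3), DUSP6 (6 and 3) and JUN (5 and 4), each 1 region away and among 7 genes tied at that distance. Counts this small are shared by many genes.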

How the data were processed

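CUT&Tag with a pan-lactyllysine antibody was carried out on 1 library of lactate-treated and 1 of untreated CAL27 cells. The submitters' processing notes name hg38 as the build and list fastp 0.20.0, BWA and MACS2 2.1.0. Per the file headers, MACS 2.1.0.20150420 called peaks in each library separately, with no control, at a q-value threshold of 0.05, a shift of -100 bp and an extension of 200 bp. The deposited pileup is a signal in tags over the summit, not scaled for depth, and the deposited fold enrichment is the ratio of (pileup + 1) to (local background + 1). The sources used here do not say whether a spike-in was added, and a library without antibody was not analysed here.

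From these files, summits of the same start and end were collapsed to 1 region, kept with its highest fold. Regions were shared when they overlapped by at least 1 bp, and paired with their partner of highest pileup. Local background and −log10 p were recomputed from pileup and fold enrichment. Genes and promoter windows came from RefSeq on GRCh38.p14, the build of the peaks. The promoter table was matched by symbol for 7 of the 8 genes, and its sequences are credited to RefSeq. Exons and introns were not told apart. A gene end was marked by a region within 1 kb. The 8 genes, the pathway list and the markers were chosen with earlier results of these data known. The pathway genes named are every receptor and other ligand, and in each other group up to 2 marked in either library alone and 1 in both, by fold enrichment; 1 of these is not reported here. The 3 pathway genes nearest to AREG and to EREG in region counts were named too. Overlap counting was checked on simulated data. The tools were matplotlib 3.10.9, SciPy 1.17.1, numpy 2.4.6, pandas 2.3.3 and Python 3.11.15.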

Additional observations from a re-analysis of the deposited data

How the results depend on the processing

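No paired analysis was possible because each group has 1 library. Under 9 other settings, the 5 cluster regions of the lactate-labelled library alone became 3 in gene bodies alone and stayed within 1.5 times otherwise, and the 1 of the untreated-labelled library became 0 with a minimum of 7 on the recomputed −log10 p. At TGFA, HBEGF, EGF and NRG1 together, the 12 regions of the lactate-labelled library alone became 3 with equal lists of the 21840 strongest regions and 5 at a −log10 p of at least 7. The 4 of the untreated-labelled library alone became 7 with equal lists, 2 in gene bodies alone, 2 with 10 kb flanks and 1 at a −log10 p of at least 7. With equal lists, the excess at NRG1, 5 regions, turned to -2 (4 regions in the lactate-labelled library against 6 in the untreated-labelled one). The summed pileup ratio of the cluster, 1.42, turned to 0.865 at a −log10 p of at least 7, where 1 pair was left, an alternative added after the data were seen. EREG and AREG had a gene-end region in the lactate-labelled library alone at a fold enrichment of at least 5, at a −log10 p of at least 7, with equal lists and with every summit. BTC moved from both libraries to the lactate-labelled library alone under the first 3 of these. Under those 3, in that order, 10.6%, 10.9% and 7.29% of all protein-coding genes had the call in the lactate-labelled library alone. In the untreated-labelled library alone the shares were 3.59%, 3.55% and 5.78%. Such settings only drop or re-list regions, so none could add one of the untreated-labelled library at the EREG or AREG start. The kept calls, part of what chose the genes, are therefore no further support. Depth limits every comparison of single regions, since the highest pileup of the ligand genes was 37 tags.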
